A study of Rattus norvegicus with 232 samples.

Results

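The genes described here are 10 members of the Hox family measured in rat brain, namely Hoxa5, Hoxb2, Hoxb3, Hoxb4, Hoxb5, Hoxb6, Hoxc4, Hoxc5, Hoxd3 and Hoxd4. They were taken by symbol from a table of RefSeq genes, where all 10 were present among 20859 features. Their values over animals, batches and strains were compared with those of genes that mark parts of the brain. Total RNA depleted of ribosomal RNA was sequenced with strand information. It came from untreated male rats of inbred strains in the Hybrid Rat Diversity Panel, and GEO's labels call the tissue whole brain. According to the methods of the study, each brain was cut sagittally and RNA was taken from 1 side. The table holds 197 animals of 74 strains, of which 69 strains had 2 or more animals, and 17 sequencing batches.

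The strains form 3 panels. The HXB/BXH recombinant inbred strains, 30 in number, descend from SHR/OlaIpcv and BN-Lx/Cub. The FXLE/LEXF recombinant inbred strains, 19 in number, descend from F344/Stm and LE/Stm. The remaining 25 are classic inbred strains, with the 4 progenitors among them. The methods state that HXB/BXH rats and their progenitors were kept in a colony in Prague and their brains were shipped frozen. The study's other inbred strains are stated to have come from vendors to Colorado, where they were killed and dissected. Its strain list holds F344/Stm and LE/Stm, for which no other source is named. For the FXLE/LEXF strains and the inbred strains outside that study the source is not given in the sources used here. An inbred strain has near-identical animals, so differences between its animals hold almost no genetic variation.

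Hox genes encode homeodomain transcription factors that lie in 4 chromosomal clusters, a to d. During development they are switched on in nested domains along the head-to-tail axis, with genes of low number reaching furthest forward into the hindbrain. In the adult brain their RNA is found mostly in the medulla and pons. A piece of brain that holds more caudal brainstem or more upper spinal cord is thus known to hold more Hox RNA. Genes with the same number are paralogs, copies of 1 ancestral gene in different clusters. The 10 are Hoxb2 of group 2, Hoxb3 and Hoxd3 of group 3, Hoxb4, Hoxc4 and Hoxd4 of group 4, Hoxa5, Hoxb5 and Hoxc5 of group 5, and Hoxb6 of group 6.

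Promoters from RefSeq on the build GRCr8, 250 bases before to 50 bases after the gene start, were at hand for 3 of the 10 genes and are shown because these genes moved together over animals. They were searched on both strands for 4 motifs: AGGTCA (the core bound by retinoic acid receptors, which act upstream of Hox genes), TAATTA (a homeodomain core), TGATNNAT (a joint site of Hox and Pbx proteins) and GGGCGG (a GC box). Capitals mark the matches, and TGACCT is AGGTCA on the reverse strand.
Hoxc4, chr7:136048809-136049108, plus strand: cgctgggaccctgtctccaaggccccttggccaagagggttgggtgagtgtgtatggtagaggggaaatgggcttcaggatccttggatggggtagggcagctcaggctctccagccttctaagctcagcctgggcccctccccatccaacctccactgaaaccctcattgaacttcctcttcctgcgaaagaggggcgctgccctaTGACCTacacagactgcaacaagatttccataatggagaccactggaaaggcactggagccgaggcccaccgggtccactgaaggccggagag
Hoxd3, chr3:80045876-80046175, plus strand: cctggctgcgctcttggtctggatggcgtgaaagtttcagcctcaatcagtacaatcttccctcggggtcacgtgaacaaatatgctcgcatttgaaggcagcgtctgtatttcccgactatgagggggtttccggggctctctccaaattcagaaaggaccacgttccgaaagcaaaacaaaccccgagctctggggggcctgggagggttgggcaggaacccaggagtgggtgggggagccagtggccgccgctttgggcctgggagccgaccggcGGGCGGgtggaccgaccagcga
Hoxd4, chr3:80021636-80021935, plus strand: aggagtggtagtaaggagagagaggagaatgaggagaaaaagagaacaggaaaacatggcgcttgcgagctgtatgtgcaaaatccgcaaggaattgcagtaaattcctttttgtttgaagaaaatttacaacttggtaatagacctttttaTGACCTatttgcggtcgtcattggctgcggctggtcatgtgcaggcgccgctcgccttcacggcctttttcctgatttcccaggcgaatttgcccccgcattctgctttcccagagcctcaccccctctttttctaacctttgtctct
The Hoxc4 and Hoxd4 windows each held 1 AGGTCA core, which 16.2% of 33469 rat promoters of this length also hold. The Hoxd3 window held 1 GC box, found in 33.1% of promoters, and 19 CG dinucleotides against a median of 7. The Hoxd4 window held 12 CG dinucleotides and the Hoxc4 window 6. Neither TAATTA nor TGATNNAT, found in 5.36% and 9.1% of promoters, occurred in the 3 windows. The 3 genes thus had no searched motif in common. In the deposited rn6 annotation Hoxb4 lies at chr10:84167331-84169907, Hoxb5 at chr10:84153082-84154742, Hoxc4 at chr7:144647587-144650129 and Hoxd3 at chr3:61648832-61676572, all on the plus strand. RefSeq has Hoxa5 overlapping Hoxa3, and Hoxc4 and Hoxc5 overlapping Hoxc6. How the counting split reads between overlapping genes is not given in the sources used here.

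The table gives values on a log2 scale as the authors normalised them, with no counts, so the depth of each library is unknown and levels are not compared between genes. All 10 Hox genes lay below the median feature, whose mean value was 8.32. Their means over animals ran from 2.41 for Hoxc5 to 4.45 for Hoxd4. A property of the table bears on every result. Only 0.728% of the variance of library values lay between batches in the median feature, where 7.55% would arise with no batch effect at all. The shares of the Hox genes were 0.396% to 0.823%. Batch means were thus nearly equal in the deposited values, and the mean of Hoxb5, for example, lay between 3.94 and 4.09 in all 17 batches. An older deposited table of Ensembl genes, called version 5, was less levelled by its values: its median share was 27.8%, and 5 of the Hox genes were measured there.

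In the version 5 table the Hox genes were near their lowest value in 1 set of inbred strains and well above it in most other animals. The set is the 11 inbred strains whose animals all lay in batches 8 to 11: ACI/SegHsd, COP/CrCrl, DA/OlaHsd, F344/NCrl, F344/NHsd, LEW/Crl, LEW/SsNHsd, SHRSP/A3NCrl, SR/JrHsd, SS/JrHsd and WKY/NCrl. The split by batch was chosen after the data had been seen. Hoxb5 ran from 3.64 through a median of 3.642 to 3.744 in their 33 animals, from 3.641 through 3.994 to 4.837 in 88 HXB/BXH animals, and from 3.643 through 3.997 to 4.485 in 11 animals of 4 inbred strains of other batches. Within 0.01 of the lowest Hoxb5 value of the table lay 28 of the 33 animals, 11 of the 88 and 1 of the 11. For Hoxb4, Hoxc4, Hoxd3 and Hoxd4 this held for 24 to 28 of the 33 animals and 11 to 13 of the 88. All 5 genes were at their lowest value together in 17 of the 33 animals (51.5%), 3 of the 88 (3.41%) and 0 of the 11. A low value shared by many animals is what a log transform gives to counts at or near 0, but the table holds no counts.

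The 5 genes of a caudal hindbrain marker list that were measured in version 5 moved with the same split. All 5 had higher strain means in HXB/BXH than in the 11 strains by limma (26.9% of features). Against the 4 other inbred strains 0 of 5 passed as higher (8.11% of features), and 0 of 5 had an unadjusted limma p under 5%. Slc6a5, which encodes the glycine transporter GlyT2 of inhibitory neurons in brainstem and spinal cord, had a median of 8.226 in the 33 animals, 10.05 in HXB/BXH and 10.07 in the 11 others. For Glra1, the subunit of the adult glycine receptor, the medians were 8.052, 8.814 and 8.832. The differences of strain means between HXB/BXH and the 11 strains ran from 0.0283 ± 0.00939 (SE) for Phox2a through 0.148 ± 0.0151 for Lbx1 and 0.325 ± 0.0757 for Prph to 1.55 ± 0.137 for Slc6a5. Batch 10, by the batch characteristic, held animals of both kinds. The titles give these animals other batch numbers, by which HXB/BXH and inbred animals shared no batch. There Hoxb5 was 4.052 to 4.461 in 5 HXB/BXH animals and 3.641 to 3.744 in 12 inbred animals, and Slc6a5 was 9.892 to 10.71 and 7.854 to 9.413. All 5 of 5 Hox genes were higher in every HXB/BXH animal than in every inbred animal of that batch, as were 0.994% of all features. Of the caudal list, this held for Slc6a5, Glra1 and Prph but not for Phox2a and Lbx1. Lbx1 was 2.767 to 2.941 in the HXB/BXH animals and 2.713 to 2.898 in the inbred animals. The part of dissection in these levels was not tested.

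**Figure D1:**
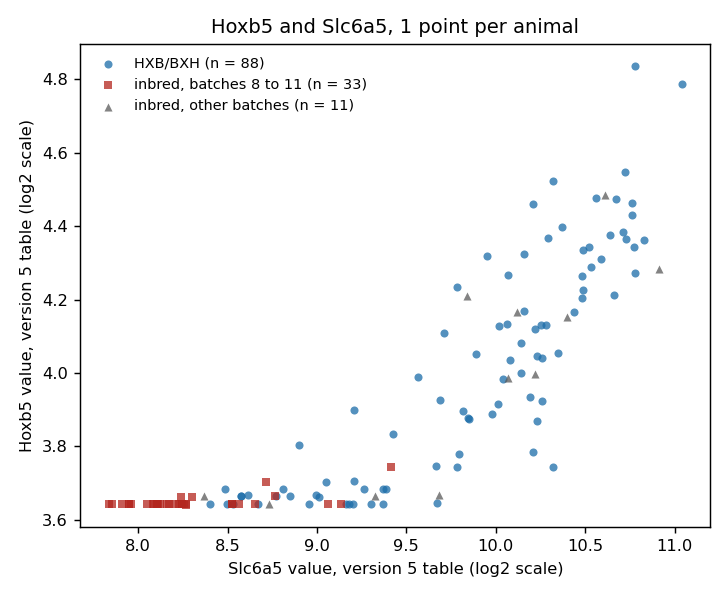
Hoxb5 value (vertical) against Slc6a5 value (horizontal) in the version 5 table, both on the log2 scale, with 1 point per animal of HXB/BXH strains (88, circles), inbred strains of batches 8 to 11 (33, squares) and inbred strains of other batches (11, triangles). The squares lie along the lowest Hoxb5 value, up to 3.744, at low Slc6a5, while most circles and triangles rise from that line as Slc6a5 rises.

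Strain means gave the same picture, but they average the same animals and are no separate support. The split by batch was chosen after the data had been seen, so p-values against its parts do not test it. In version 5, strain means differed between HXB/BXH and inbred strains for 5 of 5 Hox genes, as they did in 49.3% of features in either direction, with Hoxb5 at 4.02 ± 0.196 (SD, n = 30 strains) against 3.75 ± 0.208 (n = 15, limma adjusted p = 0.000384). Against the 11 strains of batches 8 to 11 alone 5 of 5 passed, all higher in HXB/BXH (56.3% of features passed and 26.9% were higher), and Hoxb5 there was 3.65 ± 0.0129 (SD, limma adjusted p = 1.07e-06). Against the 4 other inbred strains, BN-Lx/Cub, SHR/OlaIpcv, F344/Stm and LE/Stm, 0 of 5 passed (20.4%, 0 of 5 at an unadjusted p under 5%). Their Hoxb5 was 4.02 ± 0.259 (SD), and HXB/BXH minus these strains was -0.0039 ± 0.105 (SE, limma adjusted p = 0.985). By animal, Hoxb5 was 3.663, 3.664 and 4.209 in BN-Lx/Cub and 3.667, 3.643 and 3.987 in SHR/OlaIpcv. The lower values of these strains fell within the range of the 11 strains, up to 3.744. In F344/Stm it was 4.166, 4.283 and 3.997 and in LE/Stm 4.485 and 4.153, so this difference averages over lower and higher strains. With the mean of these 5 caudal hindbrain genes as a covariate, 0 of 5 Hox genes passed against all inbred strains (40.3%).

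The Hox genes varied together among animals of the same strain. Deviations of each animal from its strain mean were correlated in the 192 animals of the 69 strains with at least 2 animals. Pearson's r lay between 0.644 (Hoxb6 with Hoxd3) and 0.878 (Hoxa5 with Hoxb5) over the 45 pairs, with a median of 0.797. Spearman's rho lay between 0.646 and 0.866. All 45 pairs passed a two-sided permutation test within strains (100000 resamples), each with an adjusted p of 1e-05, the smallest it can give. Without the 2 animals furthest from the median, r was 0.635 to 0.873. All 10 genes lay on the same side of the strain mean in 101 animals (52.6%), above it in 46 and below it in 55. In a strain with 2 animals their deviations mirror each other, so these animals are not independent, and batch was not removed in this count. The first principal component held 80.6% of the variance of the 10 standardised deviations. In bulk tissue, fewer cells of a type and less RNA per cell cannot be told apart.

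**Figure D2:**
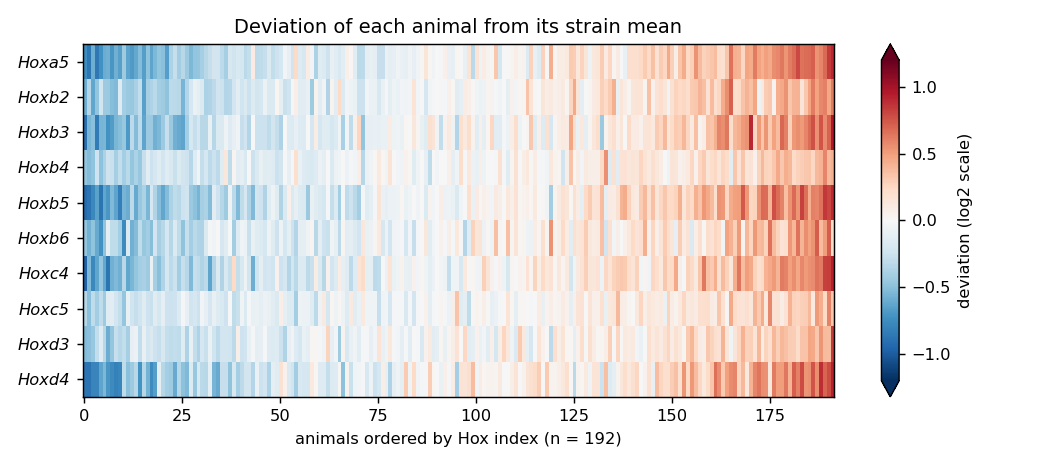
Deviation of each of 192 animals (columns, ordered by the Hox index) from its strain mean for the 10 Hox genes (rows), with colour giving the deviation on the log2 scale. Columns are mostly of 1 colour from top to bottom, and in 101 animals all 10 genes lie on the same side of the strain mean.

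Pairs from the same and from different clusters had similar correlations. Pairs in the same cluster, 12 in number, had a median r of 0.783, and the 33 pairs from different clusters 0.803. The 7 pairs of the same paralog group had a median of 0.797, and the 38 other pairs 0.798. The difference between these medians was not tested. With strain and batch effects both removed the median was 0.774, and with the first component of all features removed it was 0.801. In the version 5 table the 10 pairs of 5 Hox genes had a median of 0.826.

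Individual animals show the size of these shifts. In HXB20/Ipcv, Hoxb5 had values of 3.22, 4.82 and 3.72 in animals 1, 2 and 3. In HXB7/Ipcv the same gene read 4.95, 4.55 and 3.36. These 2 strains hold the animals furthest out on the Hox index, the mean of the standardised deviations of the 10 genes. Slc6a5 followed the same order. Its values were 9.08, 10.7 and 9.47 in HXB20/Ipcv and 10.6, 10.5 and 8.93 in HXB7/Ipcv. In BDIX/NemOdaMcwi, Hoxb5 was 4.44 in animal 1 and 2.79 in animal 2, the lowest Hoxb5 of all animals. All 10 Hox genes were higher in animal 1 of that strain, as was Slc6a5 with 9.97 against 8.05.

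The label of these genes as a mark of hindbrain content was set beside 13 lists of region and cell type markers. A further 2 lists held genes that act with or upstream of Hox genes. All lists were chosen with earlier results of these data known, so this is no independent check of the label. Of the 150 relations between a Hox gene and a list, 41 passed the permutation test after adjustment over all 150. The caudal hindbrain list, which holds no Hox gene and of which 8 of 9 genes were measured, stood highest. Its mean standardised deviation had r of 0.655 to 0.809 with the 10 Hox genes, and rho of 0.642 to 0.806. All 10 passed, with adjusted permutation p of 4.84e-05, and without 2 animals r was 0.648 to 0.798. Slc6a5 had r = 0.892 with the Hox index, and Glra1 had r = 0.87. Prph, which encodes peripherin of motor and sensory neurons, had r = 0.734, and Lbx1, a transcription factor of dorsal hindbrain and cord interneurons, had r = 0.564. The lowest gene of the list was Tlx3 with r = 0.295.

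The permutation test was also passed by all 10 Hox genes with 3 other lists. Genes of rostral hindbrain monoamine nuclei, such as Dbh of noradrenaline neurons (r = 0.559 with the Hox index) and Lmx1b of serotonin neurons (r = 0.515), had r of 0.47 to 0.641. Oligodendrocyte genes had r of 0.513 to 0.65, led by Mbp of myelin (r = 0.526 with the Hox index) and Mog (r = 0.49). The part of these genes in the co-variation of the Hox genes was not tested. Forebrain genes ran the other way, with r of -0.478 to -0.34. Among them Lhx2, a homeodomain factor of the developing cortex, had r = -0.384 with the Hox index and Neurod6, a factor of cortical excitatory neurons, had r = -0.364. The neuron list (r of -0.277 to -0.0582) passed for 1 Hox gene, Hoxb6 (adjusted permutation p = 0.00684). Its genes did not vary together, with a median pairwise r of 0.0446 inside the list. With the Hox index, Syt1 had r = -0.323, Rbfox3 r = -0.043 and Snap25 r = 0.0385.

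**Figure D3:**
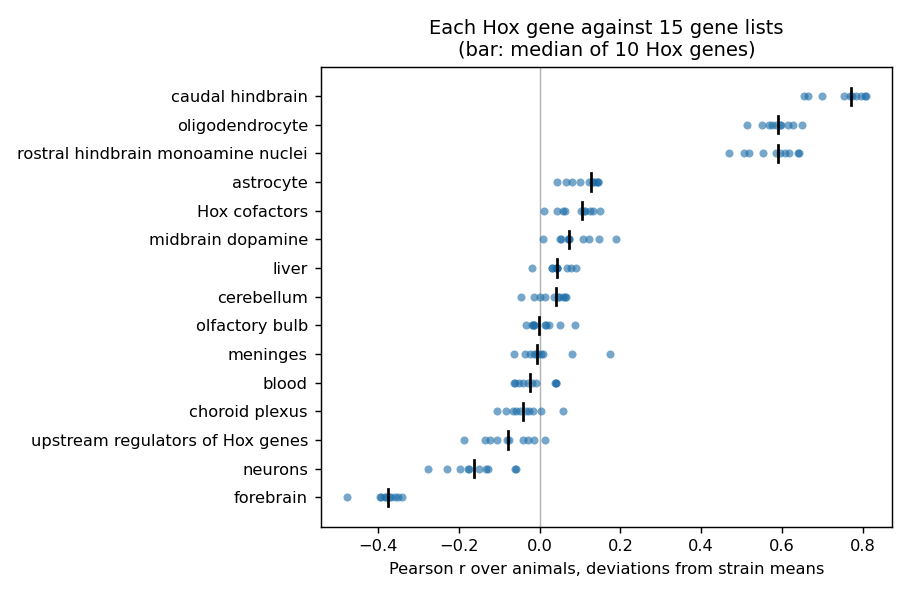
Pearson r of each of the 10 Hox genes (points) with each of 15 gene lists (rows), over the deviations of 192 animals from strain means, with a bar at the median. Caudal hindbrain genes reach 0.655 to 0.809, and forebrain genes lie between -0.478 and -0.34.

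No Hox gene passed with the cerebellum list, whose r lay between -0.0453 and 0.0643, although the cerebellum is also part of the hindbrain. The 8 cerebellum genes themselves varied together, with a median pairwise r of 0.739. Midbrain dopamine, olfactory bulb, choroid plexus, meninges, blood, liver and astrocyte lists did not pass for any Hox gene, and r stayed between -0.106 and 0.188. The median pairwise r inside the list was -0.178 for meninges and 0.0657 for astrocytes, against 0.374 (midbrain dopamine) to 0.886 (liver) in the others. A mean over genes that do not vary together says little. The olfactory bulb, another part that dissection can leave behind, gave r of -0.0344 to 0.0881. Cofactors of Hox proteins (6 Meis and Pbx genes) gave r of 0.0118 to 0.148, with 0 of 10 relations passing. Within that list Pbx3 had r = 0.415 with the Hox index and Meis1 r = 0.251. The 13 measured upstream regulators, among them retinoic acid receptors and chromatin regulators, gave r of -0.188 to 0.0143, and 0 of 10 passed. In that list Kmt2a had r = -0.164 and Cyp26b1, which degrades retinoic acid, r = 0.16. The cofactor and regulator genes did not vary together either, with a median pairwise r of -0.0497 and 0.0163 inside the list.

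Of all features, 131 had r above 0.5 with the Hox index and 0 had r below -0.5, beside a median absolute r of 0.091. All 15 Hox genes of the table were among the 131, of which 10 make up the index. Those outside the 10 were Hoxa2 (r = 0.869, mean 4.52), Hoxa4 (0.845, mean 3.6), Hoxa3 (0.792), Hoxd1 (0.611, mean 3.27) and Hoxc6 (0.562). Hoxc6 had the lowest mean of the 15, at 1.31. Among features above the median level, 10429 in number, the most alike outside the family were Slc6a5, Glra1, Endod1 (0.77), Vamp1 (0.757), Nefh (0.749), Sv2c (0.749), Ahnak2 (0.721), Ca14 (0.695), Klk6 (0.695) and Nefl (0.694). Nefh and Nefl encode neurofilament subunits of large axons, Vamp1 a synaptic vesicle protein and Klk6 a protease of oligodendrocytes. The least alike were Nav3 (-0.496), Trpc6 (-0.476), Lrrc7 (-0.474), Dlgap1 (-0.471) and Npr3 (-0.467). Lrrc7 and Dlgap1 encode proteins of the postsynaptic density.

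Once the caudal hindbrain list was regressed out of each gene, the median r between Hox genes fell to 0.54, and 45 of 45 pairs still passed. The Hox genes thus shared variation beyond this list of 8 genes as measured here.

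The spread among animals of a strain was wider in HXB/BXH strains than in the inbred strains of batches 8 to 11. Over all animals, the pooled within-strain SD of the Hox genes had a median of 0.46 over 30 HXB/BXH strains. It was 0.374 over 16 strains of FXLE/LEXF and 0.278 over 23 inbred strains. For Hoxb5 these SDs were 0.557, 0.43 and 0.354, and for Slc6a5 they were 0.608, 0.444 and 0.43. The median feature had nearly the same SD in HXB/BXH and inbred strains, 0.161 in both. In strains with exactly 3 animals (28 HXB/BXH and 18 inbred), log2 of the within-strain SD plus 0.05 was compared by limma over all features, so the ratios given are ratios of SDs to which 0.05 was added and are smaller than those of the SDs printed. The SD was wider in HXB/BXH for 7 of 10 Hox genes at a false discovery rate of 5%, and 0.417% of all features were called in this direction. Hoxc4 had a geometric mean SD of 0.446 in HXB/BXH and 0.167 in inbred strains (ratio 2.29, limma adjusted p = 4.64e-05). Hoxb5 had 0.496 against 0.194 (ratio 2.24, limma adjusted p = 0.00029). Hoxb2, Hoxc5 and Hoxd3 did not pass, with ratios of 1.71, 1.6 and 1.55.

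The call rested on the 8 of these 18 inbred strains that lay in batches 8 to 11. Against them alone 9 of 10 Hox genes passed (0.561% of features), and Hoxb5 had a geometric mean SD of 0.0987 there (ratio 3.67, limma adjusted p = 8.31e-08). Against the other 10 inbred strains 0 of 10 passed (0.216%). Hoxb5 had an SD of 0.311 in those (ratio 1.51, limma adjusted p = 0.574), and the ratios of the 10 genes ran from 0.964 for Hoxc5 to 1.79 for Hoxc4 (limma adjusted p = 0.0553). These 8 strains are among those with low Hox values in version 5, and the part of the low level in the narrow spread was not tested.

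Within the panels, the median r between Hox genes was 0.886 in HXB/BXH (45 of 45 pairs passing), 0.614 in FXLE/LEXF (39 of 45) and 0.677 among the classic inbred strains (44 of 45). In the inbred strains of batches 8 to 11 alone it was 0.924, and in those of other batches 0.65. In the first of these sets, every batch 10 animal lay below its strain mean for all 10 Hox genes. Batch was not removed there, and its part in the 0.924 was not tested. With strain and batch effects removed in the RefSeq table, the spread was wider in HXB/BXH than in all inbred strains for 9 of 10 Hox genes (0.757% of features). The comparison was added after the data had been seen. With replicate 1, 2 or 3 left out, 0, 2 and 5 of 10 passed (0.302%, 0.0288% and 0.187% of features). The median ratio of the Hox genes, 1.955 with all animals, was 1.393 without replicate 1, 1.886 without replicate 2 and 2.135 without replicate 3, so the ratio fell most without replicate 1.

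Strain accounted for little more of the Hox values than the share that arises with no strain effect. The between-strain share of the sum of squares (R2) had a median of 0.411 over the 10 Hox genes, where 0.372 would arise with no strain effect and the median feature had 0.451. By limma's moderated F-test 1 of 10 Hox genes, Hoxd3, passed at a false discovery rate of 5% (R2 = 0.482, adjusted p = 0.0289), whereas 37.3% of all features did. Hoxc4 came next (R2 = 0.46, limma adjusted p = 0.0655). The lowest R2 was that of Hoxb4, 0.374 (limma adjusted p = 0.485). With replicate 2 or replicate 3 left out, 0 of 10 passed (14.3% and 29.1% of features), so the Hoxd3 call was lost there. The within-strain SD of the Hox genes had a median of 0.388, against 0.162 over all features.

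**Figure D4:**
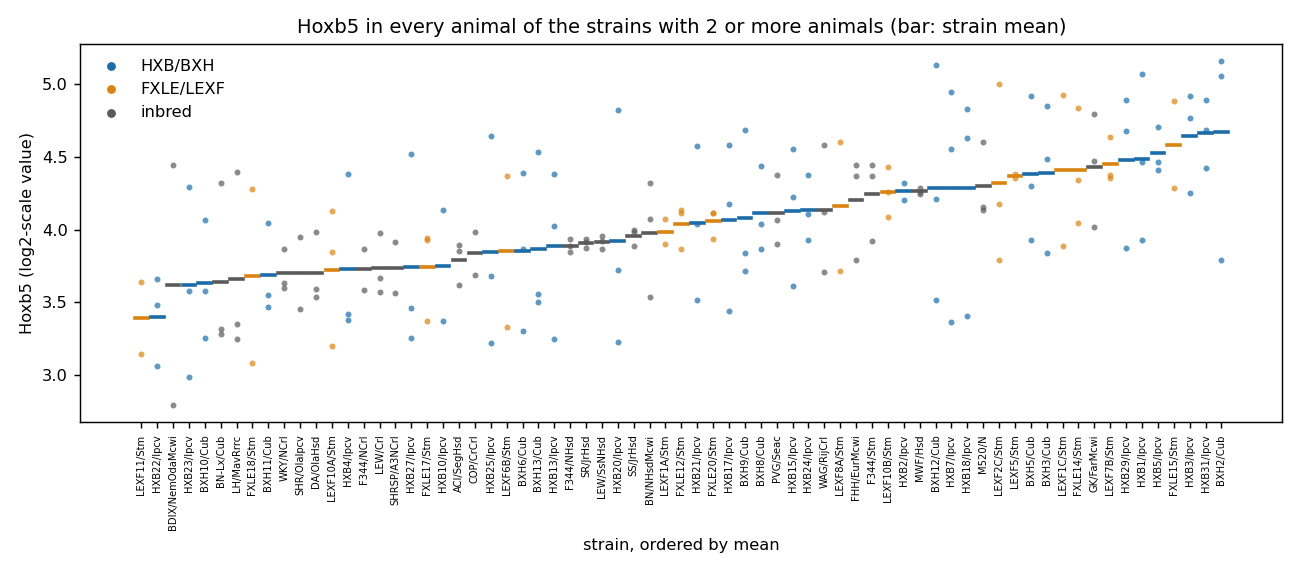
Hoxb5 value (log2 scale) of every animal (points) in 69 strains ordered by their mean (bars) and coloured by panel. Strain means climb from 3.39 in LEXF11/Stm to 4.67 in BXH2/Cub, and in 8 of the 69 strains the animals lie at least as far apart as the ends of this order.

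Strain means ran from 3.39 (LEXF11/Stm) to 4.67 (BXH2/Cub) for Hoxb5, and from 2.83 (LEXF11/Stm) to 3.77 (HXB29/Ipcv) for Hoxd3. The largest gap between adjacent Hoxb5 means was 0.218, against a within-strain SD of 0.474, and for none of the 10 genes did a gap exceed that SD. With 69 means over this range, gaps between neighbours are small by construction, so neighbours in this order are not told apart and nothing follows for a strain effect. HXB31/Ipcv was among the 2 highest strains for 7 Hox genes, and its 3 animals had Hoxb5 values of 4.42, 4.68 and 4.89. BXH2/Cub was among them for 5 genes, with Hoxb5 at 3.79, 5.16 and 5.05. HXB22/Ipcv was among the 2 lowest for 5 genes (Hoxb5 3.06, 3.48 and 3.66), as was LEXF11/Stm (Hoxb5 3.64 and 3.14). Glra1 was 10.4, 10.6 and 11 in HXB31/Ipcv and 8.82, 9 and 10.1 in HXB22/Ipcv.

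Strain means of the Hox genes moved together, but each averages the animals that moved together above. R2 lay near its value with no strain effect, so the co-variation of animals carries over to these means. Over 69 strains the median r between Hox genes was 0.816, from 0.672 to 0.933. With the strain means of the caudal hindbrain list, r was 0.74 to 0.865 and rho 0.765 to 0.866 for the 10 Hox genes. Each of these 10 relations had a two-sided permutation p of 1e-05, the smallest possible, and r was 0.726 to 0.855 without the 2 outermost strains. This permutation over strains cannot tell a relation of strains from the co-variation of their animals.

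How batches were levelled in the RefSeq table is not given in the sources used here. If each batch was shifted as a whole, a fit with both strain and batch terms would not be altered by it, which was not tested. In that fit 7 of 10 Hox genes passed the limma test for strain (59.4% of all features), with adjusted p from 0.00196 for Hoxd3 to 0.111 for Hoxa5. Hoxa5, Hoxb4 and Hoxb6 did not pass. When the caudal hindbrain list joined batch as a covariate, 0 of 10 passed (53.1% of features, 0 of 10 at an unadjusted p under 5%). With the list alone as a covariate 0 of 10 passed too (34.9%), with limma adjusted p of 0.115 to 0.985. A cerebellum list with batch left 6 of 10 (58.9%), and an oligodendrocyte list with batch left 9 of 10 (62.3%). In version 5, all 5 of 5 Hox genes passed (63.6%), 4 of 5 with batch as a covariate (38.1%) and 0 of 5 with the caudal hindbrain list, 5 genes there (59%).

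These strain calls rested on the same 11 inbred strains. Without them 1 of 10 Hox genes, Hoxd3, passed with batch as a covariate (limma adjusted p = 0.0135, 53.5% of features), and 0 of 10 passed by strain alone (36.1%), where Hoxd3 had a limma adjusted p of 0.0582. In version 5 without them 0 of 5 passed (38.4%), and 0 of 5 with batch (35.6%).

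Inside the HXB/BXH panel no Hox gene passed the strain test: 0 of 10 alone (19.1% of features), 0 of 10 with batch (32.1%), and 0 of 5 in version 5 (23.5%). No Hox gene in this panel had an unadjusted limma p under 5% in the RefSeq table, and 1 did in version 5. Hoxd3 passed within the FXLE/LEXF strains (1 of 10, 4.61% of features) and Hoxc4 within the inbred strains (1 of 10, 19.3%). For batch itself, 0 of 10 Hox genes passed in the levelled table (1.19% of features, 0 of 10 at an unadjusted p under 5%). That test says nothing of batch effects before levelling. In version 5, 0 of 5 passed for batch (54.5% of features, limma adjusted p of 0.0862 to 0.548).

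No Hox gene passed a test between the progenitors of a recombinant panel. In BN-Lx/Cub, Hoxb5 was 3.31, 3.28 and 4.32, and in SHR/OlaIpcv 3.45 and 3.95. The groups overlapped, and BN-Lx/Cub minus SHR/OlaIpcv was -0.0626 ± 0.425 (SE). By limma 0 of 10 Hox genes passed (4.51% of features), with adjusted p of 0.814 to 0.999 and 0 of 10 at an unadjusted p under 5%. F344/Stm had Hoxb5 of 4.37, 4.44 and 3.92, and the single LE/Stm animal of this table had 4.13. There too 0 of 10 passed (0.796%), with limma adjusted p of 0.418 to 0.984 and 0 of 10 at an unadjusted p under 5%. For LE/Stm, with its single animal, the fit borrows the spread from the other strains. With 1 to 3 animals a strain and the wide spread among animals, only large differences could be seen.

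Between panels, strain means of Hox genes lay slightly higher in the recombinant panels. Hoxb5 averaged 4.1 ± 0.347 (SD, n = 30 strains) in HXB/BXH, 4.09 ± 0.34 (n = 16) in FXLE/LEXF and 3.92 ± 0.244 (n = 23) in inbred strains. By limma's F-test over the 3 panels 0 of 10 Hox genes passed (0% of features), all with an adjusted p of 0.96, and 0 of 10 had an unadjusted p under 5%. In the contrast of HXB/BXH with inbred strains alone 6 of 10 had an unadjusted limma p under 5%, and 0 of 10 passed after adjustment (each with a limma adjusted p of 1). The share of all features with an unadjusted p under 5% in that contrast is not given here. Where batch means are equal, a batch that holds animals of 1 panel carries little of a difference between panels. A fit with panel and batch terms and strain as a random block was therefore added after the data had been seen, in the 13 batches that shared strains. There 10 of 10 Hox genes passed (7.5% of features). HXB/BXH exceeded inbred strains by 0.354 ± 0.105 (SE) for Hoxc5 up to 0.97 ± 0.198 for Hoxb5 on the log2 scale (88 and 59 animals). This pairwise contrast passed for Hoxa5, Hoxb2, Hoxb3, Hoxb4, Hoxb5, Hoxd3 and Hoxd4, with limma adjusted p of 0.0262 to 0.0498. FXLE/LEXF minus inbred lay between -0.272 and 0.162 and passed for 0 of 10, over 13 animals of 5 strains. With the caudal hindbrain list as a covariate, 4 of 10 passed for panel (20.5% of features), namely Hoxb2, Hoxb3, Hoxc4 and Hoxd4. Without the 11 inbred strains of batches 8 to 11, 0 of 10 passed for panel (5.85% of features). HXB/BXH minus inbred was then 0.886 ± 0.337 (SE) for Hoxb5 (limma adjusted p = 0.502) and 0.285 ± 0.178 for Hoxc5, over 88 and 29 animals. Of these inbred animals only 1 in batch 1 and 2 in batch 3 shared a batch with HXB/BXH animals. They were HXB/BXH progenitors, so the contrast rests on few inbred animals. Adjusted limma p was 0.502 to 0.558 for the 10 genes. Of these, 8 had an unadjusted limma p under 5%, but the share of all features under that p is not given here. The Hoxc4 difference fell from 0.718 to 0.403 ± 0.311, and those of the other 9 genes to between 75.6% and 91.3% of their size with all strains.

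For HXB/BXH, values within single batches come from the same animals as the fit with panel and batch terms. They are thus no separate test of it. In batch 10, with 5 HXB/BXH and 10 inbred animals, the 10 Hox genes were higher in HXB/BXH by 0.846 on average. By the batch numbers in the titles, these HXB/BXH and inbred animals shared no batch. The panel fit was not repeated with those numbers. In batch 3 (13 against 2 animals) the mean difference was 0.561 and in batch 1 (13 against 1) 0.476, with 10 and 9 genes higher. The inbred animals of batches 1 and 3 were HXB/BXH progenitors. FXLE/LEXF minus inbred averaged 0.0049 in batch 15 (9 against 5 animals), -0.142 in batch 16 (4 against 9), -0.00165 in batch 18 (5 against 1) and 0.553 in batch 19 (11 against 2). The 10 inbred animals of batch 10 were of the 11 strains described above. Between HXB/BXH and those 11 strains, panel, source and dissection cannot be told apart here.

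Repeat libraries of the same animal show how far the Hox values move with no change of tissue donor. Libraries of a strain with the same replicate number in their titles were taken to come from the same animal. In this table animal 1 of SHR/OlaIpcv has 12 libraries and animal 4 has 6, and further libraries in the labels were not used here. Hoxa5 ran from 2.8 through a median of 3.44 to 4.62 in animal 1, and from 3.65 through 4.09 to 4.36 in animal 4. The SD between libraries had a median over the 10 genes of 0.312 in animal 1 and 0.18 in animal 4, beside 0.388 within strains. The library of animal 1 in batch 11 stood apart: its Hoxa5 was 4.62 against 2.8 to 3.75 in the other 11, and its Slc6a5 11 against 8.39 to 10.1. It stood apart over all features too, with a median absolute gap to the animal's median of 0.236, against 0.0548 to 0.142 in the other 11. The other 11 libraries of batch 11 were of the inbred strains with low Hox values in version 5. With all libraries 8 of 10 genes varied less between libraries of animal 1 than between animals of a strain, and Hoxc4 (SD 0.561 against 0.423) and Hoxd3 (0.325 against 0.288) varied more. Of all features 44.1% varied less, 66.9% without the batch 11 library, and 70.5% in animal 4. Without the batch 11 library the median SD of animal 1 was 0.22, and 10 of 10 genes varied less between its libraries than between animals of a strain. The median r between Hox genes over libraries was then 0.552 in animal 1, and 0.248 in animal 4, against 0.824 in animal 1 with all libraries. These values include the levelling of batches, whose part was not tested.

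**Figure D5:**
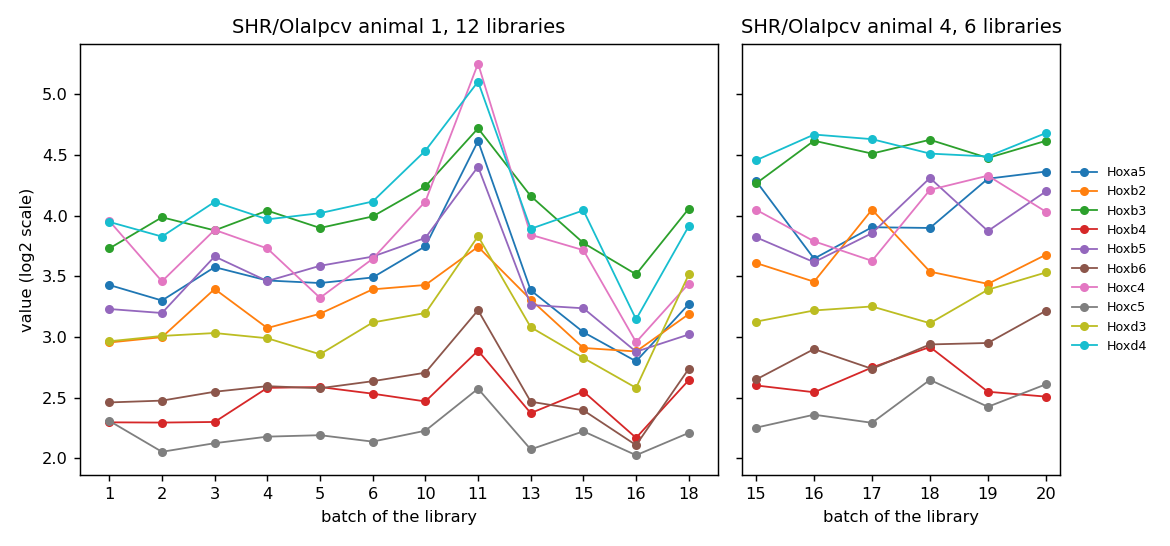
Values (log2 scale) of the 10 Hox genes in each library of SHR/OlaIpcv animals 1 (12 libraries) and 4 (6 libraries), by batch of the library, with lines joining a gene. In animal 1 the Hox genes peak together in batch 11, where Hoxa5 reads 4.62, and in animal 4 they show no joint peak.

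Among genes related to the 10, strain effects were called as follows, first by strain alone (37.3% of all features) and then with batch as a covariate (59.4%). Of the 5 other Hox genes, 2 and 3 passed: Hoxa3 (adjusted p = 0.00184) and Hoxd1 (adjusted p = 0.0187) in both limma fits, and Hoxa2 with batch alone (adjusted p = 0.00494). Of the 6 cofactor genes 1 and 5 passed, of the 13 upstream regulators 6 and 10, and of the 8 caudal hindbrain genes 2 and 5. The caudal pair by strain alone was Glra1 (limma adjusted p = 0.0328) and Tlx3 (limma adjusted p = 0.00168). Oligodendrocyte genes passed in 4 and 5 of 5 cases.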

How the data were processed

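Whole brain RNA was sequenced from strains of the Hybrid Rat Diversity Panel. The 232 samples were grouped by the strain in the labels, and libraries of 1 strain and replicate number were averaged to 1 animal. Per the methods, the authors removed ribosomal RNA, trimmed and aligned reads, estimated counts and applied a regularised log transform, after an adjustment for batch and technical effects with 1 factor from a removal of unwanted variation (RUV) analysis of isoform counts. Whether this adjustment was applied to the version 5 table is not given in the sources used here. The submitters' processing notes name cutadapt 1.9.1, Bowtie2 2.3.4.3 and 2.4.5, HISAT2 2.1.0 and 2.2.1, StringTie 1.3.5 and 2.2.1, RSEM 1.3.1 and 1.3.3, and DESeq2. The deposited values are on a log2 scale, normalised across libraries. A transform of this kind shrinks differences of low features, the Hox genes included. How the version 6 and 7.1 tables were made, and on which build, is not given in the sources used here.

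From the version 7.1 RefSeq table, 73 spike-ins were removed, and 2 columns matched no label and were left out. Values were used as deposited, with no further normalisation or filter. Single values over 30, 5 in all, were kept. Strain, batch, panel and strain pair effects were fitted on all features with limma 3.58.1 (R 4.3.3) and adjusted by Benjamini-Hochberg over all features, with calls at a false discovery rate of 5%. Batch was the batch characteristic, and in 26 samples the title gives another number. In fits with batch, 1 library per animal was used. Batches and strains fall into 3 sets that share no strain, with 160, 32 and 4 animals. The spread within strains was compared as log2 of the SD plus 0.05. Correlations used deviations from strain means and permutations within strains (100000 resamples, two-sided, numpy 2.4.6), adjusted over the 45 pairs or the 150 relations with lists. The strain, strain pair and batch fits and the correlations between Hox genes were tested on simulated data. Inbred strains were split by whether all their animals lay in batches 8 to 11, a split chosen after the data had been seen, and a value within 0.01 of a gene's lowest was counted as at the lowest. Version 5, version 6 and reconstructed gene tables served as alternatives. Columns of strain means were not used.

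The 10 Hox genes and all lists were chosen with earlier results of these data known. Other genes named are the 2 to 4 genes of a list with the highest absolute r with the Hox index, the Hox genes outside the 10, the 10 features most and the 5 least alike, and the 2 highest and lowest strains per gene. Glra1 values by animal, Tlx3, and the 2 animals furthest out were named after their values were seen. Replicates were separate animals by their titles. Some list genes that this rule would name are not reported here.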

Additional observations from a re-analysis of the deposited data

How the results depend on the processing

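Counts below are Hox genes called for strain, and the same count by the reported fit is 1 of 10. Batch as a covariate gave 7, caudal hindbrain list 0, that list with batch 0, cerebellum list with batch 6, and oligodendrocyte list with batch 9. HXB/BXH strains alone gave 0, also with batch. The version 7.1 reconstructed table gave 0 of 4 (20.4% of features), version 6 gave 0 of 7 (31.2%), and version 5 gave 5 of 5, 4 with batch, 0 with the caudal list and 0 in HXB/BXH strains alone. Without the inbred strains of batches 8 to 11 the RefSeq table gave 0, or 1 with batch, and version 5 gave 0 of 5, also with batch. The RefSeq table in the animals of version 5 gave 0 of 10 (22.8%). Leaving out replicate 1, 2 or 3 gave 0 to 2 (2 without replicate 1), with 15.9%, 14.3% and 29.1% of features called against 37.3% as reported. For panels, 0 became 10 with panel and batch terms and a random block for strain, 4 with the caudal list added, and 5 of 5 in version 5. Without those strains the random block gave 0. In version 5, 5 of 5 differed from HXB/BXH in the inbred strains of batches 8 to 11 alone and 0 of 5 in those of other batches alone. The median r within strains was 0.54 without the caudal list's part, 0.886, 0.614 and 0.677 in HXB/BXH, FXLE/LEXF and inbred strains. Pairs numbered 6, 21 and 10 in the reconstructed, version 6 and version 5 tables, all of them called. The median r of strain means, 0.816 as reported, was 0.887 with batch, 0.893 in HXB/BXH, 0.722 in FXLE/LEXF and 0.905 in version 5. The count with wider spread in HXB/BXH, 7 as reported, was 0 to 5 with 1 replicate left out, 9 against inbred strains of batches 8 to 11 alone and 0 against those of other batches alone. The cause of these changes was not tested, beyond the smaller number of genes or animals in a table.

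Replicate numbers are shared between strains but nothing ties same-numbered animals together. With a replicate block 1 of 10 Hox genes passed for strain (38.6% of features), 0 for BN-Lx/Cub against SHR/OlaIpcv (1.97%) and 0 for F344/Stm against LE/Stm (0.82%). It changed none of these 3 counts.

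Batch counts stayed at 0 in 8 alternatives and progenitor counts at 0 in 11 and 7. The filter to features above the median left no Hox gene and gave no value. Strain effects with batch were not compared between panels, since the 3 sets of batches share no strain. Alternatives with cerebellum or oligodendrocyte lists, the random block, the version 5 panels, the split of inbred strains by batch and the spread were added after seeing the data. Sequencing depth is unknown, so the precision rests on the number of animals.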
